A study of Mus musculus with 10 samples.

Results

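The probes described here are taken, by their names, as probes of long intergenic non-coding RNAs, which the array measures by genomic interval. They are the probes named by a stranded interval of the mouse genome (build mm9) in place of a gene, such as chr16:40267386-40268181 on the forward strand. A probe was included when its tumour signal was well above background on at least 5 of the 10 arrays, a rule that uses no comparison between genotypes. This held for 6048 of the 16181 interval probes, on an array of 55681 probes. The 6048 probes lie in 2227 intervals, 489 of which had such probes on both strands, and the intervals form 1266 loci when those within 50 kb of each other are joined. For 520 of the 6048 probes the interval holds a probe of a named gene. Whether a probe reads intergenic or non-coding RNA was not tested. Distances to genes below run from the interval to the nearest array probe of the gene, not to the ends of the gene.

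The tumours were 10 untreated neuroblastomas of transgenic mice, described by the labels as biological replicates. The 5 ALK/MYCN tumours came from mice heterozygous for an ALK transgene with the F1174L mutation and for a MYCN transgene, on a C57BL/6 x 129X1/SvJ background. The 5 MYCN tumours came from mice heterozygous for the MYCN transgene without the ALK transgene, on a 129X1/SvJ background. Every difference below may therefore belong to the genotype or to the strain, which cannot be told apart. The promoters of the transgenes are not given in the sources used here. RNA of each tumour, labelled with Cy3, was hybridised together with a Cy5-labelled pool of RNA from 11 mouse cell lines, the reference. Levels are given as the log2 of tumour signal over reference signal. A difference is the ALK/MYCN mean minus the MYCN mean on this scale, and a probe or gene is said to have risen, fallen or been called when limma's moderated test gave a Benjamini-Hochberg adjusted p under 0.05 over all 30857 kept probes of the array.

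Long intergenic non-coding RNAs are transcribed from their own promoters between protein-coding genes, are often spliced and polyadenylated, and lack a long open reading frame. Many are expressed in few tissues, and many lie beside genes of developmental transcription factors, with which they may share regulatory elements or a divergent promoter. Some act on chromatin or on neighbouring genes, others bind proteins or small RNAs, and for most no function is known. Neuroblastoma is a tumour of sympathoadrenal precursor cells, in which the ALK receptor kinase and the MYCN transcription factor are known drivers.

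The probes on which the main results turn are shown first, each 60 bases long and read 5′ to 3′ on the strand of its transcript. The first 3 lie end to end or nearly so in the reverse-strand interval beside Pou3f3, where the largest rise was measured, and share a run of at least 30 bases with array probes of the transcripts named Pantr1 or BRN1-A.
chr1:42705247-42705306, reverse strand: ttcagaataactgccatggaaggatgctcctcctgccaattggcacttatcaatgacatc
chr1:42705179-42705238, reverse strand: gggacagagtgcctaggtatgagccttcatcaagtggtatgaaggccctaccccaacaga
chr1:42705119-42705178, reverse strand: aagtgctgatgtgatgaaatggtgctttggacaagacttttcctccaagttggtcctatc
The next 2 lie on the other side of Pou3f3, on the forward strand.
chr1:42759129-42759188, forward strand: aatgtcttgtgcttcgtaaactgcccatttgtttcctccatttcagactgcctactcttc
chr1:42759215-42759274, forward strand: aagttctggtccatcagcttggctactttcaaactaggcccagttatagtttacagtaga
Another 3 mark the leading probes of the region between the array probes of Igsf11 and Lsamp, where forward-strand probes rose together.
chr16:40072476-40072535, forward strand: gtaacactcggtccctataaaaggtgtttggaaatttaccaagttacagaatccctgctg
chr16:40267935-40267994, forward strand: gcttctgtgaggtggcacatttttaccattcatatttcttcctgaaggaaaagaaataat
chr16:40472292-40472351, forward strand: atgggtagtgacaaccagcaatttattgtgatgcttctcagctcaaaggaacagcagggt
Of the falls, 3 are shown, beside Ifi204, beside Meis2 and in an interval on chromosome 8 that was not well above background in any ALK/MYCN tumour. Capitals in the last mark AATAAA, the hexamer of the polyadenylation signal.
chr1:175706660-175706719, reverse strand: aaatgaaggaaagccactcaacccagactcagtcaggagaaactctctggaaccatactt
chr2:115900741-115900800, forward strand: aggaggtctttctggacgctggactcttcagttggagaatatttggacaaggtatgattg
chr8:110203340-110203399, reverse strand: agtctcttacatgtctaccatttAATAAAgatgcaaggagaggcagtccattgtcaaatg
Finally, 2 probes read opposite strands of nearly the same stretch of chromosome 17, and were called in opposite directions. Capitals mark the 55 bases that are reverse complements of each other.
chr17:56792246-56792305, forward strand: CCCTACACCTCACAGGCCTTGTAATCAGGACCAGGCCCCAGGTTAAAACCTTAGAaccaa
chr17:56792241-56792300, reverse strand: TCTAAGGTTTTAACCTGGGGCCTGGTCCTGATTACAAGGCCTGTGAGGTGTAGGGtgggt

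Between 33.9% and 41.6% of the interval probes were well above background on an array, against 60.3% to 64.6% of the other probes. The share of interval probes averaged 38.84 ± 3.23% with ALK/MYCN and 37.08 ± 1.99% with MYCN alone (SD, n = 5 each). An exact permutation test over all assignments of the tumours did not separate these means (two-sided p = 0.341; the smallest possible is 0.00794). Of the 9 markers of noradrenergic neuroblasts, 8 were above background on all arrays and 3 rose. Markers of other cells also moved with the groups: 6 of 8 endothelial and 6 of 8 macrophage markers fell. Their mean centred level ranged from -0.88 to 0.10 with ALK/MYCN and from 0.04 to 1.08 with MYCN alone for endothelium, and from -0.75 to -0.18 and from -0.19 to 0.98 for macrophages. Of 6 skeletal muscle markers 1 fell, with a level of 5.11 in MYCN 2 and 2.49 in MYCN 1 and from -1.38 to -0.38 in the other tumours. Adrenal cortex markers (0 of 3 called) were high in ALK/MYCN 3 and kidney markers (0 of 2) in MYCN 5. Adipocyte markers (0 of 3 called) stood at 4.13 in MYCN 4 and 2.58 in ALK/MYCN 3 against -2.44 to -1.25 in the other ALK/MYCN tumours, and fibroblast markers (0 of 5) ranged from -2.20 in MYCN 1 to 2.82 in MYCN 4. Of 4 T and B cell markers 1 fell. The part of such cells in the differences below was not tested, and in whole tumours fewer cells of a type and less RNA per cell cannot be told apart. The number of arrays limits the precision.

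A smaller share of interval probes than of other probes differed between the genotypes, and more of them were higher in ALK/MYCN tumours than lower. Of 6048 interval probes, 941 (15.6%) were called, beside 24.9% of all kept probes. Of these, 615 rose (13.7% of all kept probes did) and 326 fell (11.2% of all kept probes did). Among the other probes, 27.2% were called, 3600 higher and 3143 lower. Calls came from 517 intervals in 382 loci, of which 204 held only rises, 150 only falls and 28 both. The groups did not overlap for 690 interval probes, beside 18.9% of all kept probes, and 617 of these were called.

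The size of the differences was small for most of them. The median difference was 0.03 over interval probes and -0.01 over other probes, with an SD over probes of 0.341 and 0.494. The median standard error was close, 0.105 and 0.110, as was the median SD among tumours of a genotype (0.158 with ALK/MYCN and 0.161 with MYCN alone, against 0.164 and 0.171). Among interval probes 100 differed by more than 1 upwards and 42 by more than 1 downwards, and the median size of a called difference was 0.49. A probe near background that passed through 1 group had to differ, so the count was also taken over the 4440 interval probes above background on all 10 arrays. Of them, 766 (17.3%) were called, 492 higher and 274 lower, beside 26.2% of all probes of that kind. At the threshold of the rule, the 279 probes above background on exactly 5 arrays had a median difference of 0.03 (-1.66 to 1.40), and the 329 on exactly 4 arrays, which were left out, one of 0.01 (-1.81 to 0.62).

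The split between rises and falls moved with the scaling of the arrays. Rises were 65.4% of the called interval probes with loess, 76.9% with the scanner's own normalisation, 76.5% with the Cy3 channel alone, 87.7% with median centring (143 falls) and 96.9% with centring on spike-in spots (74 falls). With spike-in centring the median difference of all kept probes was 0.23 in place of 0.00, and falls below are falls relative to the other probes. Slides held 1 to 3 tumours of each group. On all 3 slides, the within-slide difference had the sign of the pooled one for 922 of the 941 called interval probes (98.0%) and for all 43 named probes. The same held for 98.4% of the other called probes. These probes were called on the same arrays, so the agreement is no separate test of the calls. Without ALK/MYCN 5, 196 falls were called, and without MYCN 3, 210.

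Of the 6048 interval probes, 819 were above background in tumours but in the reference on no array. Among these, 156 were called, 127 higher and 29 lower, against 483 of the 1639 other probes of that kind (29.5%). Among the 3472 interval probes above background in the reference on every array, 366 rose and 256 fell (17.9% called). Of the other probes of that kind 28.2% were called, 2901 higher and 2834 lower.

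The largest rise lay beside Pou3f3, which encodes a POU-domain transcription factor of neural development, also called Brn1. Its interval, chr1:42689799-42749799 on the reverse strand, ends 6.3 kb before the nearest Pou3f3 probe. The leading probe, chr1:42705179-42705238, read 4.84, 5.32, 4.97, 4.72 and 4.54 in ALK/MYCN tumours 1 to 5 and 0.18, -0.07, 4.32, 0.30 and 2.76 in MYCN tumours 1 to 5. All ALK/MYCN tumours were high, MYCN 3 was nearly as high, MYCN 5 was intermediate and the other 3 MYCN tumours were near 0, so that the groups did not overlap but the MYCN tumours differed widely among themselves. The means were 4.88 ± 0.29 and 1.50 ± 1.95 (SD, n = 5 each) and the difference 3.38 (SE 0.78, limma adjusted p = 0.0117). The probe was above background in 2 of the 5 MYCN tumours and in the reference on 0 arrays, so the 3 MYCN values near 0 are ratios of background signals. Without ALK/MYCN 3, MYCN 2 and MYCN 5, in which adrenal cortex, muscle or kidney markers were highest, the difference was 3.25 with an adjusted p of 0.0562. The 2 probes on either side of it rose by 2.85 and 2.48, and the remaining probe of the interval differed by 0.24 (adjusted p = 0.0795).

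The gene probe of Pantr1, the non-coding transcript divergent to Pou3f3, showed the same tumours apart. It read 4.88, 5.49, 5.06, 4.84 and 4.41 in ALK/MYCN and 0.00, 0.06, 4.32, 0.23 and 2.94 in MYCN tumours, and rose by 3.43 (SE 0.80, limma adjusted p = 0.0128). It shares bases with 1 of the interval probes and is no independent measure of it. It was not called with the scanner's own normalisation (adjusted p = 0.0718), nor without the 3 tumours named above (0.0562).

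Pou3f3 itself read 1.99, 2.12, 1.73, 1.80 and 1.30 in ALK/MYCN and -0.01, 0.03, 1.46, -0.04 and 0.78 in MYCN tumours. MYCN 3 and MYCN 5 were again the high ones of their group, and MYCN 3 exceeded ALK/MYCN 5. Pou3f3 rose by 1.34 (SE 0.29, limma adjusted p = 0.00932), and without the same 3 tumours the adjusted p was 0.0555. It was above background in 1 of the 5 MYCN tumours. On the far side of the gene, 2.77 kb from it, all 3 probes of the forward-strand interval chr1:42758928-42771337 rose, by 1.30, 1.47 and 1.64 (limma adjusted p from 0.000514 to 0.0014), though they were above background in only 1 or 2 of the MYCN tumours. The probe at chr1:42759215-42759274 read 1.87, 2.19, 2.06, 1.86 and 1.63 in ALK/MYCN and 0.02, 0.10, 1.10, -0.11 and 0.27 in MYCN tumours. The groups did not overlap, and MYCN 3 was the highest MYCN tumour here as well. Further along the same strand, at chr1:42770029-42770088, a probe was not called (-0.00, adjusted p = 0.993).

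A group of rises lay in 3 neighbouring loci within 488 kb of chromosome 16, between the array probes of Igsf11 and Lsamp. Both genes encode neural cell adhesion molecules of the immunoglobulin superfamily. Between positions 39984031 and 40472481 lay 31 interval probes of 11 stranded intervals, and 1 of the 4 on the reverse strand rose. Of the 27 on the forward strand, 6 were above background in no MYCN tumour. These had passed the filter through the ALK/MYCN tumours and were at least 1.46-fold to 1.92-fold higher there by mean Cy3 signals. The other 21 rose, by 1.14 or more. The probe with the largest difference, chr16:40267935-40267994, read 4.31, 4.29, 3.98, 5.03 and 4.25 in ALK/MYCN and 1.80, 2.42, 2.19, 1.83 and 2.32 in MYCN tumours. Every ALK/MYCN tumour stood well above every MYCN tumour. The difference was 2.26 (SE 0.20, limma adjusted p = 0.000183), which is 4.79-fold. It remained past the threshold when any tumour was left out (2.10 to 2.36).

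In the loci on either side the leading differences were smaller. At chr16:40472292-40472351 the ALK/MYCN tumours read 3.93, 4.20, 3.60, 4.24 and 3.69 and the MYCN tumours 2.05, 2.56, 2.43, 1.53 and 2.13, a rise of 1.79 (SE 0.20, limma adjusted p = 0.000522). At chr16:40072476-40072535 they read 2.34, 2.17, 1.89, 2.95 and 2.18 against 0.67, 0.72, 0.74, 0.46 and 0.81, a rise of 1.63 (SE 0.17, limma adjusted p = 0.000449). The groups were apart at both. The nearest named gene by distance, Igsf11, has its probe 1043 to 1445 kb away and differed by 0.17 (limma adjusted p = 0.562). Lsamp, with its probe on the other side at 1674 to 2073 kb, rose by 2.14 (SE 0.23, limma adjusted p = 0.000459), from 0.79 ± 0.36 to 2.93 ± 0.43 (SD, n = 5 each). These distances run to array probes, not to the ends of the genes. Whether the region lies within the transcript of Lsamp was not tested. A gene's own transcript and a separate RNA cannot be told apart here.

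Other rises lay next to neuronal genes that rose with them. All 7 probes of the locus next to Elavl2, which encodes a neuronal RNA-binding protein of the Hu family, rose. Of them, 5 are on the reverse strand (median difference 1.47), that of Elavl2, and 2 on the forward strand (1.02). The interval of the leading probe, chr4:90877414-90917198, ends 0.791 kb from the Elavl2 probe and is on its strand. The leading probe read 2.99, 2.55, 2.09, 3.16 and 3.18 in ALK/MYCN and 0.76, 0.77, 1.18, 1.16 and 1.24 in MYCN tumours. The groups were apart, and the difference was 1.77 (SE 0.21, limma adjusted p = 0.000642), beside a rise of Elavl2 of 1.34 (limma adjusted p = 0.000526). At so short a gap on 1 strand, a longer form of the gene's own transcript and a separate RNA cannot be told apart from the 5 reverse-strand probes. The 2 forward-strand probes read the strand opposite to Elavl2. The same holds for the interval chr10:109653855-109858347 on the reverse strand, 1 probe of which shares a run of bases with the probe of Nav3, a neuron navigator gene. The probe beginning at 109653920 read 2.39, 2.23, 1.99, 2.01 and 2.03 in ALK/MYCN and 0.67, 0.87, 1.18, 0.72 and 0.82 in MYCN tumours, again apart. All 3 probes rose, by 1.19 to 1.29 (the one that shares the run was not called with the scanner's own normalisation, adjusted p = 0.118), and Nav3 rose by 1.46 (limma adjusted p = 8.54e-05).

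All 8 probes of a locus 160 kb from the array probe of Gramd1b, which encodes a sterol transfer protein, rose. The leading one, in chr9:40266027-40266460, read 3.21, 3.83, 3.56, 4.48 and 4.65 in ALK/MYCN and 2.48, 2.50, 2.45, 2.07 and 2.19 in MYCN tumours. The MYCN tumours were tightly grouped and below all ALK/MYCN tumours. The difference was 1.61 (SE 0.26, limma adjusted p = 0.00217). Gramd1b rose by 1.15 (limma adjusted p = 0.0197), with ALK/MYCN 3 at 2.01 and the other ALK/MYCN tumours between 0.04 and 0.64. With slide as a block Gramd1b was not called (adjusted p = 0.0789). All 8 probes of the locus are on the strand of the Gramd1b probe. The gene's own transcript and a separate RNA cannot be told apart here.

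In 6 further rises the nearest named gene was not called, was not measured or rose by a smaller amount. The interval chr2:94082835-94101939 on the reverse strand, 39.0 kb from Ttc17, read 3.97, 3.48, 2.76, 2.71 and 3.29 in ALK/MYCN and 0.81, 1.26, 1.35, 0.81 and 1.66 in MYCN tumours. It rose by 2.06 (SE 0.26, limma adjusted p = 0.00074) without overlap, as did its other 4 probes, while Ttc17 rose by 0.44 (limma adjusted p = 0.00949; 0.0897 without ALK/MYCN 3, MYCN 2 and MYCN 5). The remaining 5 were those nearest Appl2 (1.48), S100a6 (1.46), Spry4 (1.43), Cmpk1 (1.40) and Larp7 (1.86). Of these neighbours, Appl2, S100a6, Cmpk1 and Larp7 were not called, and Spry4 had no kept probe.

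The ALK/MYCN tumours were divided at the last of these. In chr3:127037711-127111912 on the reverse strand, 132 kb from Larp7, the leading probe read 2.78, 2.59 and 2.76 in ALK/MYCN 1, 2 and 5, but 0.42 and 0.59 in ALK/MYCN 3 and 4. The MYCN tumours lay between -0.25 and 0.15, below both. The difference was 1.86 (SE 0.48, limma adjusted p = 0.0199) and the adjusted p ranged from 0.00649 to 0.0498 when 1 tumour was left out. Ank2, an ankyrin gene 413 kb away on the other side, rose by 1.13 (limma adjusted p = 0.00656).

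The largest fall lay by Ifi204, an interferon-inducible gene of the p200 family expressed in macrophages. The probe at chr1:175706660-175706719 read -4.78, -4.86, -3.81, -4.65 and -4.75 in ALK/MYCN and -3.95, -1.95, -2.38, -1.39 and -3.67 in MYCN tumours. MYCN 1 and MYCN 5 were nearly as low as the ALK/MYCN tumours, MYCN 1 below ALK/MYCN 3, so that the groups overlapped. The difference was -1.90 (SE 0.47, limma adjusted p = 0.0158), and 12 of the 14 probes of the locus fell.

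Ifi204 fell by 1.67 (limma adjusted p = 0.0252), with MYCN 1 and MYCN 5 again lowest of their group at -3.97 and -3.70. This call ended without ALK/MYCN 1, 2 or 5 or MYCN 2 or 3 (adjusted p from 0.0519 to 0.0578). Macrophage markers were lowest in the same MYCN tumours, at -0.19 in MYCN 1 and 0.07 in MYCN 5 against 0.51 to 0.98 in the other 3. Whether the fall follows macrophage content was not tested. The neighbour on the other side, Mndal, of the same gene family, fell by 1.38 (limma adjusted p = 0.0378), a call that ended without any tumour other than ALK/MYCN 3, MYCN 1 and MYCN 5 (adjusted p from 0.0649 to 0.0826).

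Near Meis2, a gene of a homeobox transcription factor of development, 4 of 4 interval probes fell. The leading one, in chr2:115900355-115900904 and 211 kb from Meis2, read -1.66, -1.52, 0.28, -0.49 and -1.37 in ALK/MYCN and 0.17, 0.03, 1.26, 1.55 and 1.08 in MYCN tumours. ALK/MYCN 3 lay among the MYCN tumours. The difference was -1.77 (SE 0.42, limma adjusted p = 0.0138). Meis2 read -2.98, -2.20, 0.98, -0.21 and -1.74 against 0.77, 0.39, 2.21, 2.44 and 2.05, with the same ALK/MYCN tumour highest, and fell by 2.80 (SE 0.73, limma adjusted p = 0.0198).

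The reverse-strand interval chr8:110197171-110206546, 92.7 kb from Psmd7, was not well above background in any ALK/MYCN tumour and was above it in all 5 MYCN tumours. Its leading probe read -1.47, -1.23, -1.27, -1.21 and -1.40 in ALK/MYCN and 1.41, -0.78, 0.19, -0.83 and 1.71 in MYCN tumours. MYCN 1 and MYCN 5 were high and MYCN 2 and MYCN 4 near the ALK/MYCN tumours, without overlap. The log2 ratio differed by -1.66 (SE 0.47, limma adjusted p = 0.0292), or 3.15-fold. By mean Cy3 signals the probe was at least 3.15-fold lower in ALK/MYCN tumours. That bound counts each ALK/MYCN signal at no less than the lowest detected signal of its array, and concerns the means, not each tumour. A bias of the dye cannot be seen in it without swapped dyes. The call ended without ALK/MYCN 1, 2, 4 or 5 or MYCN 1 or 3 (adjusted p from 0.0506 to 0.0623), and with slide or replicate as a block. Psmd7, a proteasome subunit gene, did not pass (0.07, limma adjusted p = 0.484). In all, 6 interval probes were above background in no ALK/MYCN tumour and 28 in no MYCN tumour, with bounds from 1.07-fold to 3.15-fold. They passed the filter through the other group alone, which fixes their direction. A bound of this kind can exceed the difference of the log2 ratios. At chr17:36136010-36136696 it was 1.13 on the log2 scale against a difference of 0.62 (limma adjusted p = 0.088).

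Other falls lay by genes of the immune system, by an imprinted gene and by a heat shock gene. The reverse-strand interval chr6:129151512-129208737 lies between Clec2d and Cd69, which encode C-type lectin-like proteins of lymphoid cells. It read -1.76, -1.65, -1.32, -1.40 and -1.71 in ALK/MYCN and -1.23, 0.86, 0.05, 0.09 and -0.60 in MYCN tumours, and fell by 1.40 (SE 0.32, limma adjusted p = 0.0119) without overlap. Clec2d fell by 1.36 (limma adjusted p = 0.0258), and the call ended without ALK/MYCN 1, 2 or 5 or MYCN 3 or 4 (adjusted p from 0.0502 to 0.0623). Cd69 had no kept probe. The reverse-strand interval chr6:4841700-4847400, 132 kb from the imprinted gene Peg10, fell by 1.79 (SE 0.41, limma adjusted p = 0.0114), with ALK/MYCN 3 at -0.46 and MYCN 1 at -0.54. Peg10 differed by -1.31 (limma adjusted p = 0.0696). Near Hspa2, a testis-enriched heat shock gene that differed by 0.38 (limma adjusted p = 0.118), 5 of 6 probes fell, the leading one in chr12:77550684-77551505. It fell from 1.20 ± 0.88 to -0.58 ± 0.15 (SD, n = 5 each; limma adjusted p = 0.00627), with MYCN 2 lowest of its group at -0.24. The probe was above background in 1 of the 5 ALK/MYCN tumours, as was that of chr6:129151512-129208737.

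The remaining falls among the 12 largest lay in or near 6 further genes. In chr5:33773382-33776739, which contains the probe of the homeobox gene Nkx1-1, all 3 reverse-strand probes fell, the leading one by 1.23 (SE 0.28, limma adjusted p = 0.0106). Nkx1-1 fell by 1.20 (limma adjusted p = 0.024), and its call ended without ALK/MYCN 5, MYCN 1 or MYCN 2 (adjusted p from 0.0501 to 0.0516). The intervals near Otoa (-1.63) and Arid2 (-1.40) remained called without any 1 tumour. The chr17:38132217-38157667 probe beside olfactory receptor genes (-1.60) was above background in 1 ALK/MYCN tumour, and its call was lost without ALK/MYCN 1, 4 or 5 or MYCN 2 (adjusted p from 0.0552 to 0.0674). The chr7:86662963-86663649 probe near Polg (-1.49) was lost without ALK/MYCN 4 or 5 or MYCN 1 or 4 (adjusted p from 0.0511 to 0.0601). The reverse-strand probe of chr1:52706748-52712402, an interval that holds a probe of Nemp2 on the opposite strand, differed by -1.20 (adjusted p = 0.0466). Its call was lost without any tumour other than MYCN 1, 2 or 4 (adjusted p from 0.0662 to 0.0937) and under 8 of the processing alternatives (0.053 to 0.167), and without ALK/MYCN 3, MYCN 2 and MYCN 5 the difference was -0.55.

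Probes of 1 interval and strand moved together. Of 1545 stranded intervals with 2 or more probes, 418 held a call; in 120 of these all probes were called in 1 direction, in 198 exactly 1 probe was called, and in 6 the calls went both ways. Of 2301 pairs of a called probe with another probe of its stranded interval, 92.0% had the same sign of difference. The first and the last probe of a stranded interval, a median of 255 bases apart, had differences that correlated at r = 0.797 (1532 intervals), a description across intervals that share the arrays.

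Opposite strands of an interval moved together much less. Over the 489 intervals with probes on both strands the mean differences of the strands correlated at r = 0.206. Of these intervals, 321 had no call, 145 were called on 1 strand and 23 on both, 9 of them higher on both, 6 lower on both and 8 in opposite directions. Equal shares of the 2840 forward-strand and 3208 reverse-strand probes were called (15.6% each).

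One opposite pair reads the same 55 bases of chromosome 17 from both strands, inside chr17:56791549-56803877 which contains a probe of Catsperd, a gene of the sperm calcium channel. The forward-strand probe read -0.04, 0.21, 0.25, -0.05 and 0.20 in ALK/MYCN and -0.34, -0.17, -0.26, -0.39 and -0.19 in MYCN tumours, and rose by 0.38 (SE 0.08, limma adjusted p = 0.0101). The reverse-strand probe read 0.33, 0.03, -0.08, 0.03 and 0.05 in ALK/MYCN and 0.43, 0.49, 0.24, 0.47 and 0.31 in MYCN tumours, and fell by 0.32 (SE 0.09, limma adjusted p = 0.0257). The groups were apart on the forward strand, and ALK/MYCN 1 overlapped with the MYCN tumours on the reverse strand. The fall was not called under median or spike-in centring, with the scanner's own normalisation, with slide as a block, or without ALK/MYCN 2, 3, 4 or 5 or MYCN 1, 2 or 4 (adjusted p from 0.0503 to 0.0584). With Cy3 alone neither strand was called (adjusted p = 0.204 and 0.82). In the intervals near Lhfpl3 (forward -0.29, reverse 0.48), at Kifc5c-ps (-0.57 and 0.36) and near Prr14 (-0.27 and 0.34), the called probes of the strands lay 84856, 638 and 900 bases apart. The forward-strand falls near Lhfpl3 and Prr14 were likewise not called under median or spike-in centring, with Cy3 alone or with slide as a block (adjusted p from 0.053 to 0.842). The fall near Prr14 was also lost with replicate as a block (0.0505) and without ALK/MYCN 5 (0.0546), and with Cy3 alone the rise on its other strand was lost as well (0.0996). The rise near Lhfpl3 was lost without ALK/MYCN 3, MYCN 2 and MYCN 5 (0.0624). At Kifc5c-ps the groups did not overlap on either strand and both calls held without any 1 tumour, but the fall was not called under spike-in centring, with the scanner's own normalisation or with Cy3 alone (adjusted p from 0.0556 to 0.107).

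The nearest probe of a named gene lay a median of 17.2 kb from the interval, and for 5317 interval probes that gene had a kept probe. All such distances run to array probes, so an interval far from the probe may still lie within the gene. Of these, 834 were called, beside 30.2% of named genes, and 293 of the 834 had a called neighbour: 228 went the same way and 65 the opposite way (77.8% the same). Several probes of 1 interval can enter this count. With 1 probe per stranded interval, 94 pairs went the same way and 40 the opposite way. When each named gene, read by 1 probe, was set against its own nearest named gene, 620 of 1082 such pairs went the same way (57.3%). Across probes the differences of interval and neighbour correlated at r = 0.262, and those of named genes and their neighbours at 0.070; many interval probes share an interval or a neighbour, and all share the arrays. The neighbour was called for 35.1% of the called interval probes and for 24.7% of those not called. Called genes on the side away from the nearest gene went either way. Besides Lsamp, Ank2, Mndal and Clec2d, the genes Hsd17b12 (0.84), Zfp352 (0.66) and Fam53a (-0.71) went the way of their named interval. Mfsd6 (0.52), D8Ertd158e (1.89) and Hs3st2 (2.08) rose beside the falls near Nemp2, Psmd7 and Otoa (limma adjusted p from 0.000232 to 0.00441). Mrps9 (-0.25) fell beside the rises at Pou3f3 (limma adjusted p = 0.031, and 0.353 with median centring).

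The share that went the same way was highest near the probe of the gene and, over few pairs, far from it. Where the interval contained a probe of the gene, all 26 pairs with both called went the same way. In such pairs both probes may read the gene's own transcript, and at Nav3 1 interval probe has the position of the gene's probe. These pairs are included in those up to 10 kb. Up to 10 kb, 103 of 122 pairs did (84.4%; r = 0.404 over 2265 probes), on the strand of the gene 81 of 95 and on the opposite strand 22 of 27. From 10 to 50 kb it was 47 of 64 and from 50 to 200 kb 54 of 81. Beyond 200 kb 24 of 26 pairs went the same way, over 303 probes with 86 different neighbours. Named genes within 10 kb of each other went the same way in 211 of 368 such pairs (57.3%; r = 0.058). Without ALK/MYCN 5, 146 pairs in all were called the same way and 24 the opposite way.

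Of 270 interval probes whose nearest named gene was on a list of transcription factors, 49 (18.1%) were called, 23 higher and 26 lower, beside 15.6% of all interval probes and 24.9% of all kept probes. Their median difference was -0.02. Besides the loci of Pou3f3, Meis2 and Nkx1-1, the rule for naming took up 3 of them. Of the 4 probes of chr8:111766396-111772271 on the reverse strand, 1 was called. It read 1.74, 1.96, 2.52, 1.78 and 2.14 in ALK/MYCN and 2.90, 2.89, 3.11, 3.03 and 3.54 in MYCN tumours, and fell by 1.07 (SE 0.17, limma adjusted p = 0.00218). The groups were apart, but the fall was not called with the scanner's own normalisation (adjusted p = 0.103) or with Cy3 alone (0.224). Its neighbour at 281 kb, Zfhx3, a homeobox gene of neuronal differentiation, went the opposite way and rose by 2.40 (SE 0.24, limma adjusted p = 0.000373). The interval near Smad7, an inhibitor of TGF-beta signalling, fell by 0.57 (limma adjusted p = 0.0049) with Smad7 (-0.49, limma adjusted p = 0.0116, not called under spike-in centring or with an intensity trend and robust variances). The one near Tcf15 fell by 0.36 (limma adjusted p = 0.0024; not called under spike-in centring or with Cy3 alone), and Tcf15 differed by -1.15 (limma adjusted p = 0.0561). Near Map3k2, a kinase gene that acts upstream of JNK and ERK5, 3 of 3 probes of chr18:32389815-32392082 on the forward strand rose. The leading ones rose by 0.77 and 0.78, and the gene rose by 0.89 (limma adjusted p = 0.00373). Probes of Map3k2 lie on both sides of the interval, at 1.71 and 4.26 kb, the nearer one on its strand. The gene's own transcript and a separate RNA cannot be told apart here.

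In the 3 loci with the most interval probes, 16.4%, 2.94% and 10.3% of the probes were called, beside 15.6% of all interval probes. The locus of Mirg and Rtl1, in the imprinted Dlk1-Meg3 domain of chromosome 12, spans chr12:110842149-110988678 and held 55 probes, of which 9 fell and 0 rose, with a median difference of -0.16 (-0.59 to 0.30). Mirg, the microRNA-containing gene of the domain, read 3.87, 4.03, 3.78, 3.58 and 3.75 in ALK/MYCN and 4.35, 4.19, 4.34, 4.27 and 4.38 in MYCN tumours and fell by 0.51 (SE 0.09, limma adjusted p = 0.0032; 0.144 with spike-in centring), whereas Meg3 differed by -0.05 (limma adjusted p = 0.591). The locus of Pvt1 and Myc held 34 probes with 1 fall. The locus of Tiam1 and Sod1 held 29 with 2 rises and 1 fall, and its 3 forward-strand probes had a median difference of 0.70 against -0.09 for the 26 on the reverse strand.

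Of 103 long non-coding RNAs on a list by name, 47 were measured, and 6 rose and 5 fell (23.4% called, beside 30.2% of named genes); their median difference was -0.01. Snhg11, a snoRNA host gene, rose most after Pantr1: it read 5.50, 4.47, 4.07, 3.73 and 4.77 in ALK/MYCN and 1.57, 2.51, 3.09, 1.80 and 3.14 in MYCN tumours, a rise of 2.09 (SE 0.39, limma adjusted p = 0.0048; 0.0706 with the scanner's own normalisation). Zfhx2os rose by 1.19, Norad, which binds Pumilio proteins, by 1.14, Firre, an X-linked RNA of nuclear organisation, by 1.03, and Tug1 by 0.47. Norad had an adjusted p of 0.055 without ALK/MYCN 3, MYCN 2 and MYCN 5. Rmrp, the RNA of the RNase MRP complex, fell by 0.53, and Mir9-3hg, a host of miR-9, fell by 1.70, with ALK/MYCN 1 at 3.27 among MYCN tumours of 2.33 to 3.65. Malat1 (-0.12), H19 (0.65) and NEAT1 (-1.50) were not called.

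Calls of 3 of these names were uncertain. That of Mir9-3hg ended without any tumour other than ALK/MYCN 1 and MYCN 2 and 3 (adjusted p from 0.0529 to 0.071), with the scanner's own normalisation (0.0621), with the slides as blocks (0.054) and when ALK/MYCN 3, MYCN 2 and MYCN 5 were left out together (0.103). Those of Snhg17 (-0.32) and of the transcript now named Inafm2 (-0.20) ended under median and spike-in centring and also when single tumours were left out: Snhg17 without ALK/MYCN 1, 3 or 5 or MYCN 1, 2 or 3 (adjusted p from 0.056 to 0.0728), and Inafm2 without ALK/MYCN 1, 2, 3 or 5 or MYCN 2, 3 or 5 (0.0508 to 0.0825). Inafm2 changed sign under spike-in centring (0.08).

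Interval probes that lie on the strand of a listed RNA, within an interval that contains its probe, numbered 124 for 22 listed RNAs. Of these probes 14 rose and 7 fell (16.9% called, beside 15.6% of all interval probes). In the interval of Norad 3 of 3 rose (1.15 to 1.28), in that of Firre 4 of 5 (0.22 to 0.89 over all 5), in that of Pantr1 3 of 4 and in those of Tug1 3 of 10. In the intervals of Crnde 2 of 5 fell (-0.82 to -0.51 over all 5), in those of Mirg 3 of 13, and in those of Dleu2 and Snhg17 0 of 12 each were called.

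Median GC content was 45.0% over all 6048, 41.7% over those that rose and 45.0% over those that fell. AATAAA, searched on the strand of the probe as printed, occurred in 4.03% of interval probes, 4.72% of those that rose and 5.83% of those that fell, against 14.1% of the other kept probes. TTTATT, the same motif on the other strand, occurred in 2.78% and 4.20%. A run of 30 bases was shared with a gene probe by 120 interval probes, 30 of them called, and with another interval probe by 409, so that some values repeat one target. By chromosome the share called ranged from 11.4% on chromosome 19 to 22.7% on the X chromosome, where all kept probes gave 25.1% and 28.1%.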

How the data were processed

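Tumour and reference RNA of 10 mice were hybridised on 2-colour arrays, 1 array per tumour, and, per the file headers, read out by the scanner software Agilent Feature Extraction (version 10.7.3.1). The deposited files hold the scanner's Cy3 and Cy5 intensities, not normalised between arrays, and the authors' deposited table holds log2 ratios, which served as an alternative. No source used here states how that table was centred, and its column medians differ.

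With limma 3.58.1 in R 4.3.3, intensities were background-corrected (normexp, offset 50) and loess-normalised within each array. Control spots had weight 0, spots marked as outliers were left out, and log2 ratios were turned to tumour over reference. A probe was kept if its Cy3 signal was well above background on 5 or more of the 10 arrays. All kept probes were fitted together with lmFit and eBayes, without covariates, and p-values were adjusted by Benjamini-Hochberg over all of them at 0.05; the script was tested on simulated data. With Python 3.11.15, pandas 2.3.3 and scipy 1.17.1, each interval was set against the named gene with the nearest array probe by mm9 position. A gene was read by its probe of highest mean intensity. Gene names were updated from a RefSeq table (GRCm38.p6, for names only): of 18592 names, accessions matched 18092, symbols 326 and synonyms 53, and 121 kept the array's name.

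The text names the 12 largest called rises and falls, 1 probe per locus, the leading pairs with a called neighbour, those beside transcription factors and those called oppositely on the strands. The members and the lists (named long non-coding RNAs, transcription factors, cell type markers) were chosen with earlier results of these data known. Replicate numbers did not pair the tumours: the deviations of tumours with equal numbers correlated at -0.10 to 0.30. Alternatives were other background corrections, normalisations and filters, slide or replicate as a block, and leaving out tumours.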

Additional observations from a re-analysis of the deposited data

Results flagged for a closer look

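In 5 of 88 groups of 5 tumours, the highest or lowest tumour lay farther from its nearest neighbour than 0.710 of the range of the group; chance gives this in about 1 of 20 groups. Beside Ifi204, the chr1:175705225-175717250 reverse-strand probe read -3.81 in ALK/MYCN 3, against -4.86 to -4.65 in the other ALK/MYCN tumours. Near Polg, the chr7:86662963-86663649 forward-strand probe read 2.64 in ALK/MYCN 1 and 0.45 to 1.07 in the others. Near Prr14, in chr7:134620707-134626739, the forward-strand probe read -0.1 in ALK/MYCN 3 and -0.39 to -0.35 in the others, and the reverse-strand probe read 0.79 in ALK/MYCN 5 and 0.45 to 0.53 in the others. At Nav3, 1 probe of chr10:109653855-109858347 read 1.11 in MYCN 3 and 0.60 to 0.73 in the other MYCN tumours.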

How the results depend on the processing

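Of 1025 recomputed differences of the 43 named probes, 953 kept direction and call, 72 kept direction but lost the call, and 0 changed sign. The 941 calls became 2365 with spike-in centring (which moved the median of all kept probes to 0.23), 434 with 1 probe per stranded interval and 568 without ALK/MYCN 3, MYCN 2 and MYCN 5 together. The 615 rises became 1015 with median centring, 2291 with spike-in centring, 280 with 1 probe per stranded interval and 394 without the 3 tumours. The 326 falls became 176 with the scanner's normalisation, 143 with median centring, 74 with spike-in centring, 213 with Cy3 alone, 154 with 1 probe per stranded interval, 185 with slide as a block, 215 with replicate as a block and 174 without the 3 tumours. The 7684 calls of all kept probes became 12764 with spike-in centring and 4831 without the 3 tumours. The 228 pairs called the same way as the nearest gene became 1003 with spike-in centring, 94 with 1 probe per stranded interval, 151 with slide as a block, 143 without the 3 tumours, and 150 and 103 within 50 and 10 kb. The 11 named non-coding RNAs became 7 when both channels had to be above background, and 7 without the 3 tumours. The 23 intervals called on both strands became 137 with spike-in centring, 15 with both channels above background, 15 with 1 probe per stranded interval, 13 with slide as a block, 10 with replicate as a block and 8 without the 3 tumours. Leaving out 1 tumour gave 638 to 845 calls, 442 to 586 rises, 196 to 282 falls, 5327 to 7072 calls of all kept probes, 146 to 216 pairs, 8 to 11 named non-coding RNAs, 12 to 20 intervals called on both strands, and a difference in detected share of 0.965 to 2.87 points. The cause of these changes was not tested, apart from fewer probes or tumours entering some of them. With replicate as a block 674 interval probes were called (459 higher), although the numbers did not pair the tumours. Probes near background limit what can be seen: 7124 interval probes were above it on no array.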

Other observations

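The interval probes with the highest ratios to the reference, 1 per locus, were chosen after their values were seen. The ranking left out chromosome 18 and every probe that lacked a value in any tumour. Of the rest, 47 interval probes of 17 loci had a mean log2 ratio above 3 over all 10 tumours. The highest, in chr12:110842154-110883594 and 13.7 kb from Rtl1, an imprinted retrotransposon-like gene, had a mean of 5.61 (5.09 to 5.97). A probe of chr9:68349343-68411643, 507 kb from Vps13c, had 5.60 and did not pass between genotypes (-0.24, limma adjusted p = 0.225). Close to the imprinted Snrpn, a probe of chr7:67111261-67120697 had 5.03 and rose by 0.67 (limma adjusted p = 0.00375; 0.305 with the scanner's normalisation). Next to Cbln1, a synaptic organiser gene, a probe of chr8:89996710-90049453 had 4.76 and fell by 0.88 (limma adjusted p = 0.00315; 0.0583 with the scanner's normalisation). At Zdbf2, another imprinted gene, a probe of chr1:63319842-63349796 had 4.44 with a difference of 0.01 (limma adjusted p = 0.971), and was above background in the reference on 0 arrays. The next in order lay near Pus7 (chr5:23195569-23218551, 3.92), Gramd1b (chr9:40268246-40268441, 3.64) and Cypt2 (chrX:102567595-102589870, 3.47).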
